A study of Mus musculus with 12 samples.

Results

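The histone lysine modifying enzymes examined here were the genes whose symbols in the table of regularized log2 values began with Hdac, Kat, Kdm, Kmt or Setd followed by a number, together with the Setdb genes. The rule matched 59 symbols, 4 of which were pseudogenes and were set aside, leaving 55 of 34547 genes. They comprised 11 lysine deacetylases, 8 lysine acetyltransferases, 18 lysine methyltransferases and 18 lysine demethylases. The rule reads the symbol and no measured value.

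RNA was sequenced from cortical and medullary thymic epithelial cells (cTEC and mTEC) that had been sorted from wild-type (WT) mice and from Aβ0/0 mice, in which the gene for the MHC class II β chain, H2-Ab1, is disrupted in every cell of the body. The 4 groups, cTEC WT, cTEC Aβ0/0, mTEC WT and mTEC Aβ0/0, had 3 libraries each. Each library came from the pooled thymi of 5 to 10 mice of 4 to 6 weeks of age, so a value is an average over animals, and the labels do not give the sex of the mice. By the methods of the study, CD45- EpCAM+ cells were sorted as cTEC when they carried Ly51 and did not bind the lectin UEA1, and as mTEC when they bound UEA1 and did not carry Ly51. The p-values below measure the spread between the 3 pools of a group.

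Histone tails carry acetyl and methyl groups on lysines. Acetyltransferases and deacetylases add and remove acetyl groups, which loosen the packing of chromatin and mark active genes, whereas methyltransferases and demethylases set methyl marks that accompany either active or silent chromatin, depending on the lysine. In the thymus, mTEC transcribe a very wide range of tissue-restricted genes to which developing T cells are made tolerant, and many of these genes lie in chromatin with repressive marks.

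Library size ranged from 21710319 to 36139815 estimated counts. H2-Ab1, the disrupted gene, had 9055, 9640 and 9150 TPM (the length-corrected share of a library's transcripts, scaled to a fixed sum) in the WT cTEC libraries and 3153, 3956 and 3491 in the Aβ0/0 cTEC libraries. In mTEC it had 11506, 11966 and 11674 TPM in WT and 2469, 3541 and 3178 in Aβ0/0. The genotypes did not overlap in either subset, although RNA of the gene was still counted in all 12 libraries, and WT exceeded Aβ0/0 by 1.81 ± 0.27 (SE) on the log2 scale in mTEC (adjusted p = 0.035, edgeR with Benjamini-Hochberg adjustment, but 0.055 without the filter on low counts, 0.058 with a mean of at least 10 counts, 0.060 with all 12 libraries in 1 fit, 0.10 with the replicate block and up to 0.14 with 1 library left out, when it passed in 2 of 6 fits) and by 1.47 ± 0.34 in cTEC (adjusted p = 0.70). In mTEC the adjusted p of H2-Ab1 was 1.3e-07 by DESeq2 and 0.0035 by limma on the regularized log2 values. The subset labels were checked against their markers, with the summed TPM of 10 cTEC markers between 9241 and 27030 in cTEC and between 1882 and 2680 in mTEC, and that of 10 mTEC markers between 2502 and 5267 in cTEC and between 18195 and 33721 in mTEC. RNA of other cells was also counted: the sum of 14 thymocyte markers was 288 to 766 TPM in WT cTEC, 870 to 1001 in Aβ0/0 cTEC and 36.8 to 197 in mTEC, that of 7 fibroblast markers was 1652 to 2546 in cTEC and 115 to 265 in mTEC, that of 6 endothelial markers was 28.8 to 76.5 in WT cTEC against 14.0 to 21.2 in Aβ0/0 cTEC and 27.2 to 37.0 in WT mTEC against 12.6 to 17.8 in Aβ0/0 mTEC, that of 7 granulocyte markers was 1404 to 2004 in WT mTEC against 187 to 426 in Aβ0/0 mTEC and 24.3 to 510 in cTEC, and that of 6 macrophage markers was 624 to 680 in WT mTEC, 108 to 743 in Aβ0/0 mTEC and 9.32 to 356 in cTEC. The fibroblast sums were mostly Dcn, at 1569 to 2363 TPM in cTEC. There Col3a1 had 16.9 to 142 TPM and each other fibroblast marker at most 35.3. The macrophage sums were mostly Lyz2, which had 740 TPM in Aβ0/0 mTEC replicate 1, where Adgre1 and C1qa were at 0. The sum of 8 markers of dendritic and B cells was 28.2 to 42.6 TPM in WT mTEC, 3.08 to 8.09 in WT cTEC, 7.59 to 30.2 in Aβ0/0 mTEC and 1.23 to 4.97 in Aβ0/0 cTEC. The sum of 6 erythroid markers set single libraries apart, at 1485 TPM in WT cTEC replicate 1 against 5.38 and 40.7 in replicates 2 and 3, 0.678 to 434 in Aβ0/0 cTEC, 565 to 818 in WT mTEC and 209 to 1165 in Aβ0/0 mTEC. Between WT and Aβ0/0 mTEC the granulocyte sums did not overlap, whereas the macrophage, the dendritic and B cell and the erythroid sums did. Every WT mTEC library exceeded every Aβ0/0 mTEC library for 6 of the 7 granulocyte, 3 of the 6 macrophage and 6 of the 8 dendritic and B cell markers, and every WT cTEC library for 4, 5 and 8 of them. Among the markers at 0 in every Aβ0/0 mTEC library, Ngp of granulocytes had 15.5, 21.4 and 11.3 TPM in WT mTEC. Adgre1 of macrophages had 9.89, 4.19 and 8.33 there, and Itgax of dendritic cells, near the floor, had 0.163, 0.450 and 0.275. Other markers of the same lists were counted in every Aβ0/0 mTEC library, with 122 to 231 TPM of S100a8, 22.9 to 110 of S100a9, 12.5 to 154 of Ltf, 104 to 740 of Lyz2 and 6.66 to 29.0 of Cd79b.

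The levels of the 55 genes were first compared with each other, on the TPM scale, which corrects for transcript length. Hdac1 and Hdac2, the catalytic subunits of the NuRD, Sin3 and CoREST corepressor complexes, had the highest levels, with means of 121 and 103 TPM over the 12 libraries. They were followed by Kmt2e, a SET domain protein (94.8 TPM), by Hdac3, the deacetylase of the NCoR complexes (81.5 TPM), and by Kdm5a, a demethylase of lysine 4 of histone H3 (65.2 TPM). In the 4 groups Hdac1 averaged 122 ± 24.0 TPM (SD, n = 3) in WT cTEC, 136 ± 20.7 in Aβ0/0 cTEC, 116 ± 7.95 in WT mTEC and 109 ± 24.0 in Aβ0/0 mTEC, with overlapping libraries. The lowest members were Kdm4d at 1.19 TPM, Hdac9 at 2.11, Setd1b at 2.59, the Y-linked Kdm5d at 3.01 and Kdm6b, a demethylase of lysine 27 of histone H3, at 4.27. All 55 genes passed the filter on low counts in every comparison, and their mean levels had a median percentile of 80.4 among all genes.

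**Figure D1:**
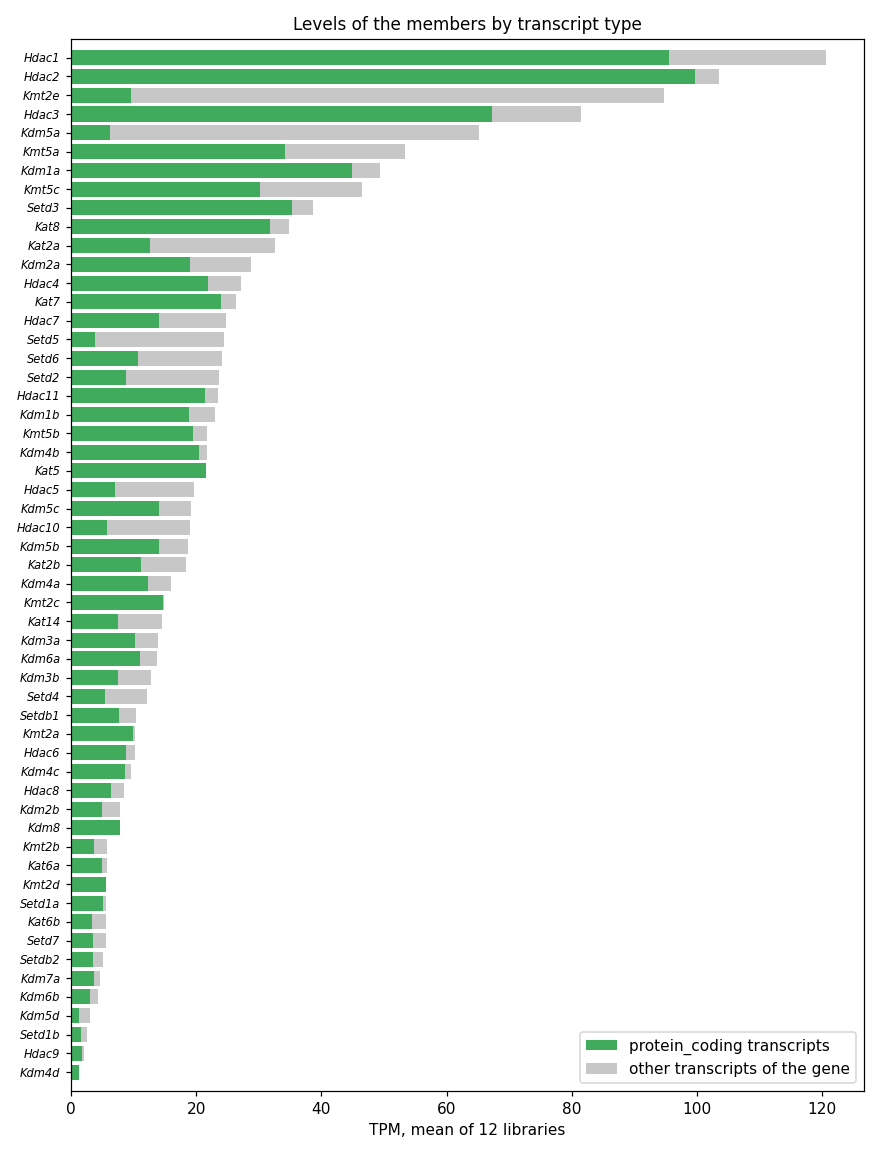
Mean level of each of the 55 genes over the 12 libraries, in TPM on the x axis, split into protein_coding transcripts (green) and all other annotated transcripts of the gene (grey). Hdac1, Hdac2 and Hdac3 were carried mostly by coding transcripts, whereas only 10.2% of the TPM of Kmt2e and 9.54% of that of Kdm5a were on coding transcripts.

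A high level of a gene did not always mean a high level of its coding transcripts. The transcript Kmt2e-207, annotated as a target of nonsense-mediated decay, held 74.9% of the TPM of Kmt2e on average, and the retained-intron transcript Kdm5a-205 held 71.8% of that of Kdm5a. On coding transcripts alone Kmt2e had rank 28 of the 55 genes, at 9.63 TPM, instead of rank 3, and Kdm5a had rank 38, at 6.22 TPM, instead of rank 5. The 5 highest were then Hdac2 at 99.7 TPM, Hdac1 at 95.6, Hdac3 at 67.3, the flavin-dependent demethylase Kdm1a at 44.9 and Setd3, a methyltransferase best known for acting on actin, at 35.4. Coding transcripts held under 50% of the TPM of 10 members, among them Setd5 (15.4%), Hdac10 (30.7%) and Kat2a (38.6%), and the median over the 55 genes was 74.9%. Short non-coding transcripts weigh more in TPM than in counts. In estimated counts, coding transcripts held 36.5% ± 12.7 of Kmt2e in WT cTEC, 27.9% ± 3.05 in Aβ0/0 cTEC, 32.1% ± 1.39 in WT mTEC and 34.1% ± 3.25 in Aβ0/0 mTEC (SD, n = 3 each). Differences between groups are therefore given below on counts summed over all transcripts, in CPM, the counts relative to the library total, scaled by the trimmed mean of M-values over the 12 libraries.

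The enzymes were then compared between mTEC and cTEC of WT mice, the contrast of the epithelial compartments. Of the 55 genes, 6 differed at an adjusted p under 0.05 (edgeR quasi-likelihood test, Benjamini-Hochberg adjustment over all 18667 genes tested), compared with 26.8% of all genes tested. With 1 library left out the number of all genes called, 4997, became 3395 to 5297, and 7572 without WT cTEC replicate 3. The deacetylase Hdac9 and the demethylase Kdm1b were higher in mTEC, and the deacetylases Hdac7 and Hdac4, the methyltransferase Setd7 and the demethylase Kdm3a were lower. Of all genes tested 18.0% were called higher and 8.81% lower in mTEC. No acetyltransferase passed the test. DESeq2 called 7 members, against 32.8% of all genes. At an unadjusted p under 0.05 there were 13 members, against 37.2% of all genes.

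Hdac9 encodes a class IIa deacetylase, a group of enzymes that are recruited by MEF2 transcription factors and carry little catalytic activity of their own. It had 1.19, 0.366 and 1.16 CPM in the WT cTEC libraries and 20.6, 16.3 and 12.9 CPM in the WT mTEC libraries. Every WT mTEC library lay far above every WT cTEC library. The log2 fold change was 4.20 ± 0.62 (SE), with an adjusted p of 0.0030 by edgeR, and it was between 3.80 and 4.46 and past the threshold when any single library was left out. In the Aβ0/0 mice the cTEC libraries had 1.49, 3.00 and 0.937 CPM and the mTEC libraries 9.47, 14.5 and 3.81 CPM. These did not overlap either, but the lowest mTEC library was close to the highest cTEC library, and the log2 fold change of 2.34 ± 1.07 did not pass (adjusted p = 0.31 by edgeR). Granulocyte, macrophage and dendritic and B cell markers were also higher in WT mTEC than in WT cTEC, as given above, and their part in the difference was not tested.

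The Kdm1b gene encodes another flavin-dependent demethylase of the genome, which removes methyl groups from lysine 4 of histone H3 and is known for its role in setting maternal imprints. It had 41.5, 46.8 and 21.8 CPM in WT cTEC and 110, 89.3 and 89.7 CPM in WT mTEC. The groups were well separated, with a log2 fold change of 1.39 ± 0.31 (SE) and an adjusted p of 0.012 by edgeR. Without WT mTEC replicate 1 the adjusted p was 0.065. The Dek gene, on the opposite strand, overlaps 9.19% of the exonic bases of Kdm1b, and the sources used here do not state that strand was used in counting, so that reads of this stretch cannot be told apart. Its paralog Kdm1a had a log2 fold change of 0.06 ± 0.20 and did not pass the test.

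Hdac7 is another class IIa deacetylase, known in the thymus for its role in developing T cells. It fell from 80.3, 57.5 and 88.7 CPM in WT cTEC to 18.5, 20.4 and 29.9 CPM in WT mTEC. All cTEC values lay above all mTEC values, with a log2 fold change of -1.72 ± 0.28 and an adjusted p of 0.0045 by edgeR, and the change held without any single library. Coding transcripts held 67.6% ± 32.3 (SD) of the Hdac7 counts in WT cTEC, 67.3% ± 10.7 in WT mTEC, and from 31.2% to 97.1% over the 12 libraries. The summed thymocyte markers were higher in cTEC too, with 288 to 766 TPM in the WT cTEC libraries against 115 to 197 in WT mTEC. The summed fibroblast markers, mostly Dcn, were 1652 to 2546 TPM against 115 to 165. Every WT mTEC library was below every WT cTEC library for 10 of the 14 thymocyte, 4 of the 7 fibroblast and 4 of the 6 endothelial markers. Among the WT cTEC libraries, replicate 3 had the lowest sum of thymocyte markers, 288 TPM, and the highest Hdac7. This is a single library, and it stood apart for 15 members, as given below. The part of these markers was not tested, either for Hdac7 or for the other genes that were lower in mTEC, Setd7, Hdac4 and Kdm3a. In bulk samples, fewer cells of a type and less RNA per cell cannot be told apart.

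Setd7 encodes a methyltransferase that places the first methyl group on lysine 4 of histone H3 and also acts on many other proteins. It had 20.4, 19.12 and 54.4 CPM in WT cTEC and 7.21, 8.67 and 9.51 CPM in WT mTEC. All mTEC libraries were below all cTEC libraries, with WT cTEC replicate 3 far above the other cTEC libraries. The log2 fold change was -1.89 ± 0.46 (adjusted p = 0.019 by edgeR), and it was -1.22 without that library, in which case the adjusted p was 0.016. The adjusted p of Setd7 was 0.060 to 0.075 by edgeR when any one of the WT mTEC libraries was left out.

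The remaining called members had smaller differences. Hdac4, like Hdac7 a class IIa deacetylase, fell from 91.5, 95.4 and 83.1 CPM in WT cTEC to 46.8, 50.3 and 60.3 CPM in WT mTEC (log2 fold change -0.78 ± 0.20, adjusted p = 0.023 by edgeR). Kdm3a, which removes methyl groups from lysine 9 of histone H3, fell from 54.1, 67.3 and 42.4 CPM to 32.6, 26.3 and 32.7 CPM (log2 fold change -0.84 ± 0.25, adjusted p = 0.040). Neither gene overlapped between the groups. With the replicate number as a block, that is, each mTEC library matched to the cTEC library of the same number, the adjusted p was 0.052 for Hdac4 and 0.081 for Kdm3a, and 4 members were called, against 20.5% of all genes in the same fit (edgeR). Leaving out 1 library gave an adjusted p of 0.010 to 0.10 for Hdac4, past the threshold in 2 of 6 fits, and of 0.0082 to 0.16 for Kdm3a, past it in 1 of 6, the fit without WT cTEC replicate 3. Without that library 10 members were called, Setd3, Kmt5b, Kat7 and Kmt2c joining the 6, and 7572 of all genes. Without WT mTEC replicate 1, 2 or 3 the count of members was 2, 3 and 3. Over all genes at least 3395 were called with any 1 library left out. The lincRNA Gm26720, on the opposite strand, covers 22.4% of the exonic bases of Hdac4.

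**Figure D2:**
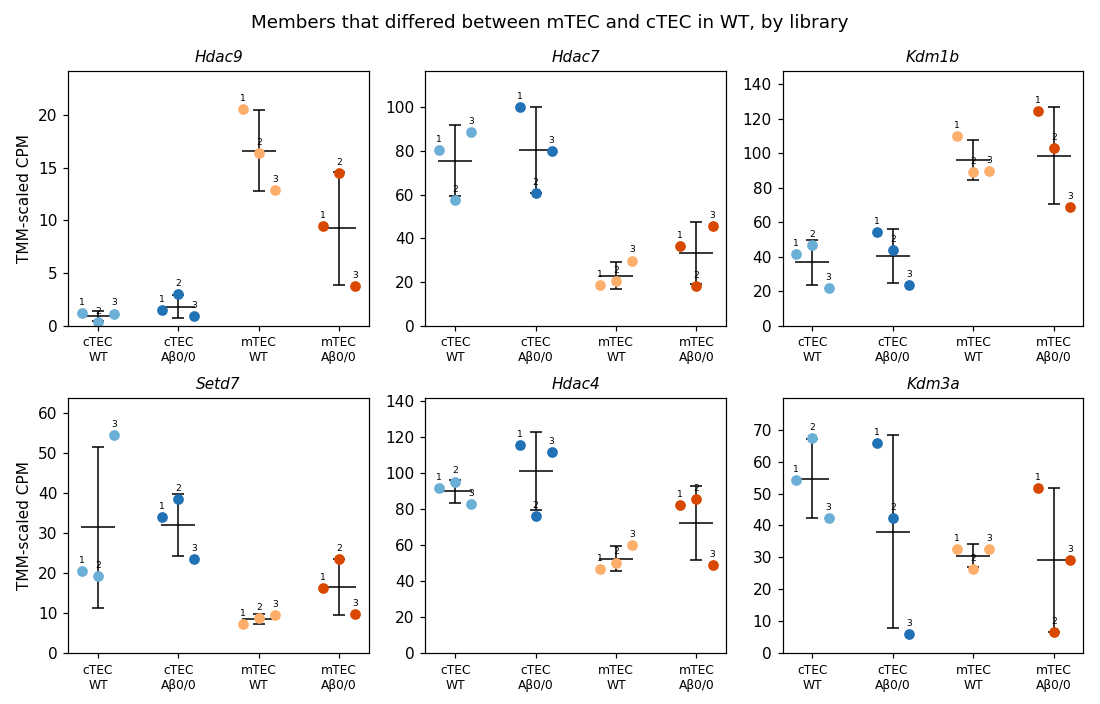
CPM of the 6 members that differed between mTEC and cTEC in WT, in each of the 12 libraries. The y axes are linear and start at 0, each point is a library with its replicate number, and the black lines are the mean ± SD of 3 libraries. Hdac9 and Kdm1b were higher in every WT mTEC library than in any WT cTEC library, and the other 4 genes were lower.

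Promoters of 5 of the 6 called members are printed here, since the genes moved in opposite directions between the same cells, and those of Kdm3a are described. Of the 55 genes, 43 had at least 1 entry in the RefSeq promoter table of build GRCm38.p6 (250 bases before to 50 bases after the start of the gene), with 61 entries in all. The sequences read 5′ to 3′ along the gene, and the capitals mark CpG dinucleotides. The 2 Hdac9 entries lie on chr12:34528840-34529139 and chr12:34917046-34917345, both on the minus strand, and held 3 and 0 CpG.
Hdac9, first entry: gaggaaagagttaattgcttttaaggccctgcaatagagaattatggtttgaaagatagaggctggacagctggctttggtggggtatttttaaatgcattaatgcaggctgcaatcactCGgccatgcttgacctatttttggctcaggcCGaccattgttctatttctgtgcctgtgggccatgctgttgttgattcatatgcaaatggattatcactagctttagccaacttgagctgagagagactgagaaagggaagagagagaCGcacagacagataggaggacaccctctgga
Hdac9, second entry: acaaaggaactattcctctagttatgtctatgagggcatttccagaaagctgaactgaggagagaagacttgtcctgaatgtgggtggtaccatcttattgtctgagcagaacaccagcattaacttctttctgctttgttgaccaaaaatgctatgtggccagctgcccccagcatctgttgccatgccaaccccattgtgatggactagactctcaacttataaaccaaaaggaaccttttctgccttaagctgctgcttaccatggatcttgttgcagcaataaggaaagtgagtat
The Kdm1b entry on chr13:47043249-47043548 (plus strand) held 26 CpG, the Setd7 entry on chr3:51560774-51561073 (minus strand) held 21, and the Hdac4 entry on chr1:92180292-92180591 (minus strand) held 32.
Kdm1b: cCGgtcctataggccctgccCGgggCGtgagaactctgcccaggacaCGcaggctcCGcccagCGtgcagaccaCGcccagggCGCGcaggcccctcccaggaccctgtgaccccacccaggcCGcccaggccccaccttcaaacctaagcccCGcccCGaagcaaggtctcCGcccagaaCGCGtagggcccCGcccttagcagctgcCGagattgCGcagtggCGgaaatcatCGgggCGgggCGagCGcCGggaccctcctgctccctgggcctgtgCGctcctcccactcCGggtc
Setd7: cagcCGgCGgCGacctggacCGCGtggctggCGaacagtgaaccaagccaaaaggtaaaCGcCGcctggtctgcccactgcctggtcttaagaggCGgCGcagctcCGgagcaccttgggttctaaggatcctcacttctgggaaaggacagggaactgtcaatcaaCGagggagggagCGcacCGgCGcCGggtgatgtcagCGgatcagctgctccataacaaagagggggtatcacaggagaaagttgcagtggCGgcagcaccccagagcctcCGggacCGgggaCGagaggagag
Hdac4: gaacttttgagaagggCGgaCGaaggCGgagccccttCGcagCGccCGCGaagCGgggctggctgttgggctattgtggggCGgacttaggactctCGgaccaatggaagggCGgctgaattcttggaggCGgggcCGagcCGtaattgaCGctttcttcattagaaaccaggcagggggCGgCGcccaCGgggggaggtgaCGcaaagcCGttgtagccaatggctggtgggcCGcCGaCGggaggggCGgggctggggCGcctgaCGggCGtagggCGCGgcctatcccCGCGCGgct
Hdac7, on the minus strand, had 4 entries, with 5 CpG on chr15:97814814-97815113, 31 on chr15:97831446-97831745, 35 on chr15:97831718-97832017 and 6 on chr15:97844453-97844752, the one that held the most Hdac7 counts in WT cTEC replicates 1 and 2.
Hdac7, entry 4: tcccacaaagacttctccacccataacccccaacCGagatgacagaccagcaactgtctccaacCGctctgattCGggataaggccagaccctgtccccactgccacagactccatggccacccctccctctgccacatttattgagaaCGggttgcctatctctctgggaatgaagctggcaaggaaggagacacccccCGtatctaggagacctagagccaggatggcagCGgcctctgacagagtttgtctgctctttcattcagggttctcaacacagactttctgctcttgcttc
Kdm3a, on the minus strand as well, had 3 entries, with 0 CpG on chr6:71609090-71609389, 40 on chr6:71632637-71632936 and 24 on chr6:71632868-71633167, of which the third held 38.4% to 100% of the Kdm3a counts in the WT libraries. Entries with few CpG were thus present for Hdac9, which was higher in mTEC, and for Hdac7 and Kdm3a, which were lower.

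The median number of CpG was 22 over the 61 entries of the enzymes and 7 over all 32851 entries of the table. At least 10 CpG were found in 82.0% of the entries of the enzymes and in 43.5% of all entries, and 5 of the 61 entries held 3 or fewer, as did 31.4% of all entries. The sequence GGGCGG, searched on both strands, was found in 60.7% of the entries of the enzymes and in 35.7% of all entries, and TATAAA, searched likewise, in 4.92% and 13.6%. TATAAA was present in the second Hdac9 entry. Transcripts that start within 200 bases of the first Hdac9 entry held 48.5% to 60.5% of the Hdac9 counts in the WT mTEC libraries, whereas those at the second entry held 1.01% to 6.12%. In the Aβ0/0 mTEC libraries the first entry had 10.9% to 40.2%. In cTEC, with few counts, it ranged from 0% to 86.7%. For Hdac7, transcripts that start at its entry 4 held 57.2%, 55.6% and 1.25% of the counts in the WT cTEC libraries and 0.133%, 26.4% and 15.9% in the WT mTEC libraries, so the groups overlapped.

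Further members named for their p-values did not pass the test between WT mTEC and WT cTEC, although none overlapped between the groups. The acetyltransferase Kat2b had 26.1, 26.3 and 71.6 CPM in WT cTEC and 17.4, 16.6 and 18.3 CPM in WT mTEC (log2 fold change -1.24 ± 0.42, adjusted p = 0.066 by edgeR and 0.031 by DESeq2), with WT cTEC replicate 3 far above the other cTEC libraries. Without that library the log2 fold change was -0.59, and with 1 library left out the adjusted p by edgeR ranged from 0.032 to 0.19, passing in 2 of 6 fits. The Kmt2c gene encodes an enhancer methyltransferase of lysine 4 of histone H3 and had a log2 fold change of -0.58 ± 0.21 (adjusted p = 0.078). Setd3, of whose 31-base words 17.9% occur in the gene Gm14026 as well, had -0.68 ± 0.25 (adjusted p = 0.082) and Hdac11, the only class IV deacetylase, had -0.69 ± 0.26 (adjusted p = 0.092). Over the 55 genes, 17 did not overlap between the groups, 5 higher and 12 lower in mTEC, compared with 30.1% of all genes higher and 17.2% lower. The median log2 fold change was -0.11 over the 55 genes and 0.06 over all genes tested.

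By class, 12 of the 18 demethylases had a positive log2 fold change in mTEC, with a median of 0.15, whereas 13 of the 18 methyltransferases, 8 of the 11 deacetylases and 6 of the 8 acetyltransferases had a negative one, with medians of -0.18, -0.11 and -0.17. The class IIa deacetylases Hdac4, Hdac5, Hdac7 and Hdac9 did not move as a group, since Hdac9 rose, Hdac7 and Hdac4 fell and Hdac5 had a log2 fold change of -0.38 ± 0.30 (SE) that did not pass. Of the class I deacetylases, Hdac1, Hdac2, Hdac3 and Hdac8 had log2 fold changes of 0.00 ± 0.20, 0.43 ± 0.28, -0.05 ± 0.28 and 0.61 ± 0.44, and none passed. Kmt2e, which had the highest TPM of the methyltransferase class over all transcripts but not on coding transcripts, had a log2 fold change of -0.63 ± 0.25. It did not pass either (adjusted p = 0.11 by edgeR).

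In the Aβ0/0 mice, 0 of the 55 genes passed the test between mTEC and cTEC by edgeR, compared with 5.60% of all 15687 genes tested. These were 878 genes, and 338 to 456 with any 1 library left out. At an unadjusted p under 0.05 there were 5 members, against 17.8% of all genes, and DESeq2 called 5, against 17.5% of all genes. The smallest p-values were those of Kdm1b and Hdac7, both among the 6 called in WT. Kdm1b had 54.4, 44.0 and 23.4 CPM in Aβ0/0 cTEC and 124, 103 and 68.7 CPM in Aβ0/0 mTEC, again without overlap. Its log2 fold change was 1.28 ± 0.40, with an adjusted p of 0.13 by edgeR, 0.049 with the replicate number as a block and 0.024 by DESeq2. Hdac7 had 99.98, 60.7 and 80.0 CPM in Aβ0/0 cTEC and 36.3, 18.1 and 45.8 CPM in Aβ0/0 mTEC (log2 fold change -1.27 ± 0.42, adjusted p = 0.15). The mTEC libraries were below the cTEC libraries for this gene in both genotypes.

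Next came Kmt2b and Kmt2a, which encode methyltransferases of lysine 4 of histone H3, together with Setd3. Kmt2b had a log2 fold change of 1.38 ± 0.52 in the Aβ0/0 mice (adjusted p = 0.21 by edgeR), Setd3 had -1.03 ± 0.39 (adjusted p = 0.21) and Kmt2a had 0.68 ± 0.27 (adjusted p = 0.23). Hdac9, at 2.34 ± 1.07, had an adjusted p of 0.31 by edgeR and 0.023 by DESeq2. For Kmt2e, Setd7, Kdm2a and Kdm8 the log2 fold changes were -0.47, -0.96, 0.53 and -1.25, with adjusted p from 0.36 to 0.46. In all, 8 members did not overlap between the groups, 5 higher and 3 lower in mTEC, compared with 15.1% and 12.7% of all genes.

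**Figure D3:**
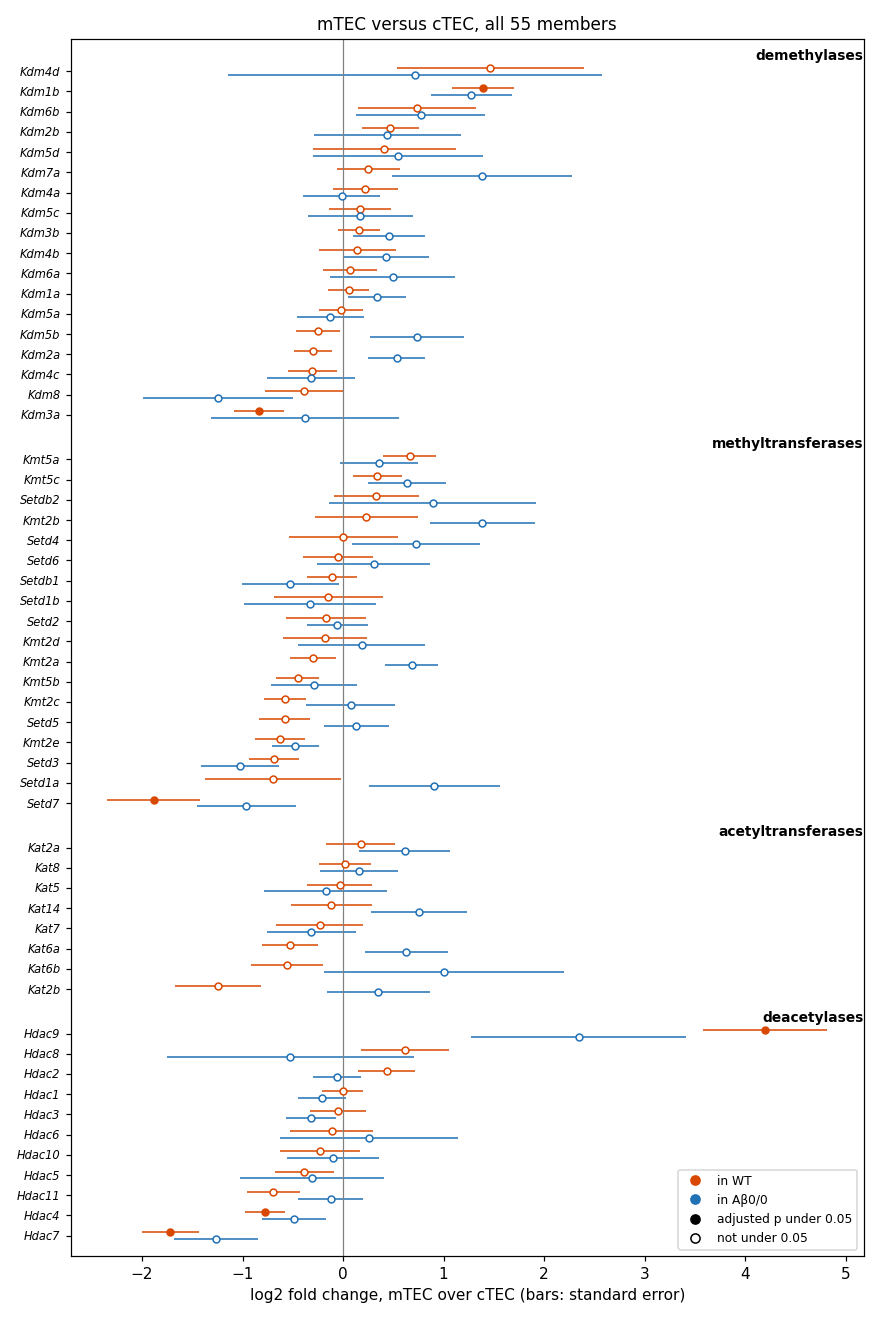
Log2 fold change of mTEC over cTEC (x axis) for each of the 55 genes in WT (orange) and in Aβ0/0 (blue), by class of enzyme, with bars of 1 standard error. Filled points had an adjusted p under 0.05. Hdac9 lies farthest to the right in both genotypes.

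The subset comparisons in WT and in Aβ0/0 share no library. Of the 55 genes, 39 had the same sign in both, 19 positive and 20 negative. Across the 55 genes the log2 fold changes had a Pearson r of 0.64 and a Spearman rho of 0.49, and r was 0.53 without Hdac9. Genes are not independent replicates, and these values are a description. Of the 6 members called in WT, 5 had the same sign in Aβ0/0 with all libraries and with any 1 left out. The log2 fold change of Kdm3a in Aβ0/0 was -0.38 ± 0.93, but 0.29 without cTEC replicate 1 and 0.08 without mTEC replicate 2. The test of the difference itself, the interaction of genotype and subset, called 0 of the 55 genes by edgeR and 0 by DESeq2, compared with 0.0103% of all 19461 genes by edgeR and 2.03% by DESeq2, and 4 members had an unadjusted p under 0.05, against 6.90% of all genes. The effects of the subset are thus not shown to differ between the genotypes for any member. The smallest p-values of the interaction were those of Kmt2a, Kdm2a, Kat6a and Kat2b, with differences in log2 fold change of -0.99 ± 0.32, -0.84 ± 0.32, -1.16 ± 0.47 and -1.61 ± 0.70 and adjusted p from 0.48 to 0.68. The next 6, Setd5, Kdm5b, Hdac9, Setd1a, Kmt2b and Hdac11, had adjusted p from 0.77 to 0.88.

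The effect of the missing MHC class II β chain was compared within each subset. In mTEC, 0 of the 55 genes passed the test between WT and Aβ0/0 by edgeR, compared with 5.66% of all 18636 genes tested. That share rests on 1054 genes and on single libraries: 0 genes were called without any one of the WT mTEC libraries, 83 and 13 without Aβ0/0 replicates 2 and 3, and 2377 without Aβ0/0 replicate 1. It was 27 without the filter on low counts, 11 with a mean of at least 10 counts, 20 with all 12 libraries in 1 fit and 0 with the replicate number as a block. At an unadjusted p under 0.05 there were 4 members, against 15.3% of all genes, and DESeq2 called 2, Kmt2a and Kdm2a, against 11.4% of all genes. Of the 55 log2 fold changes 39 were negative, that is, lower in WT, with a median of -0.25 compared with 0.00 over all genes. Of all genes, 0.338% were called lower in WT mTEC, and 5.32% were called higher.

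Kmt2a encodes the MLL1 methyltransferase, which maintains the expression of Hox genes. It had 57.5, 64.6 and 61.0 CPM in WT mTEC and 97.9, 88.2 and 96.8 CPM in Aβ0/0 mTEC. The genotypes were separated by more than the spread within either, but the log2 fold change of -0.65 ± 0.17 had an adjusted p of 0.095 by edgeR, and 0.00028 by DESeq2. In cTEC the same gene had 65.9, 63.1 and 96.3 CPM in WT and 63.8, 65.4 and 46.6 CPM in Aβ0/0, with overlap.

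Kdm2a, a demethylase of lysine 36 of histone H3 that binds unmethylated CpG, had 74.9, 81.4 and 78.6 CPM in WT mTEC and 111, 115 and 96.8 CPM in Aβ0/0 mTEC (log2 fold change -0.48 ± 0.17, adjusted p = 0.22 by edgeR and 0.012 by DESeq2). Kat14, the acetyltransferase of the ATAC complex, which shares 13.7% of its 31-base words with Pet117, had 19.5, 13.9 and 16.2 CPM in WT mTEC and 23.9, 28.7 and 49.5 CPM in Aβ0/0 mTEC (log2 fold change -1.06 ± 0.37, adjusted p = 0.21 by edgeR). Neither gene overlapped between the genotypes. Kat2b had 17.4, 16.6 and 18.3 CPM in WT mTEC and 17.8, 43.6 and 55.9 CPM in Aβ0/0 mTEC (log2 fold change -1.18 ± 0.43, adjusted p = 0.24 by edgeR). The Aβ0/0 mTEC replicate 1 lay within the WT range for Kat2b, and without that library the adjusted p was 0.030. The other members named by p-value were Hdac11, Setd7, Kmt2b, Hdac4, Kmt5c and Hdac3, with log2 fold changes from -0.98 (Setd7) to -0.28 (Hdac3) and adjusted p from 0.41 to 0.56.

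In all, 7 members did not overlap between WT and Aβ0/0 mTEC. Setd1b was higher in WT and 6 genes were lower, namely Kmt2a, Kat14, Kdm2a, Hdac11, Setd7 and Kmt2b, compared with 18.7% of all genes higher and 7.67% lower. The sum of granulocyte markers was 1404 to 2004 TPM in WT mTEC and 187 to 426 in Aβ0/0 mTEC, without overlap, and 6 of the 7 markers were separated, Ltf being the exception. The macrophage sums, mostly Lyz2, overlapped, at 624 to 680 and 108 to 743 TPM. The endothelial sums did not overlap, at 27.2 to 37.0 and 12.6 to 17.8 TPM. Every WT library was higher for 6 of the 8 dendritic and B cell markers. Of the 10 mTEC markers 4, among them Aire, were higher in every WT library and 2 were lower, as given above. The part of all these markers in the differences was not tested.

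In cTEC, 0 of the 55 genes passed the test between WT and Aβ0/0 by edgeR and 0 by DESeq2, compared with 0.0194% of all 15432 genes by edgeR and 0.634% by DESeq2. The acetyltransferase Kat6a, known as MOZ, was the single member with an unadjusted p under 0.05, against 2.16% of all genes. It had 31.5, 45.8 and 56.1 CPM in WT and 31.6, 24.7 and 20.2 CPM in Aβ0/0 (log2 fold change 0.82 ± 0.36, adjusted p = 1 by edgeR), and WT replicate 1 and Aβ0/0 replicate 1 were nearly level. The sum of thymocyte markers was lower in every WT cTEC library than in any Aβ0/0 cTEC library, as were 6 of the 14 markers, and 3 of the 6 endothelial markers were higher in every WT library. The part of these markers was not tested. The next members by p-value, Kdm4a, Setd5, Kdm8, Hdac3, Hdac2, Kdm6a, Kdm5b, Kdm2a and Setd1a, had log2 fold changes from -0.83 (Kdm8) to 0.94 (Setd1a). The sign of Setd1a rested on WT cTEC replicate 3, without which it was -0.29. Kdm4a and Kdm8, both lower in WT, were the members without overlap, compared with 7.85% of all genes in either direction. The median log2 fold change was 0.01 over the 55 genes and 0.06 over all genes.

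**Figure D4:**
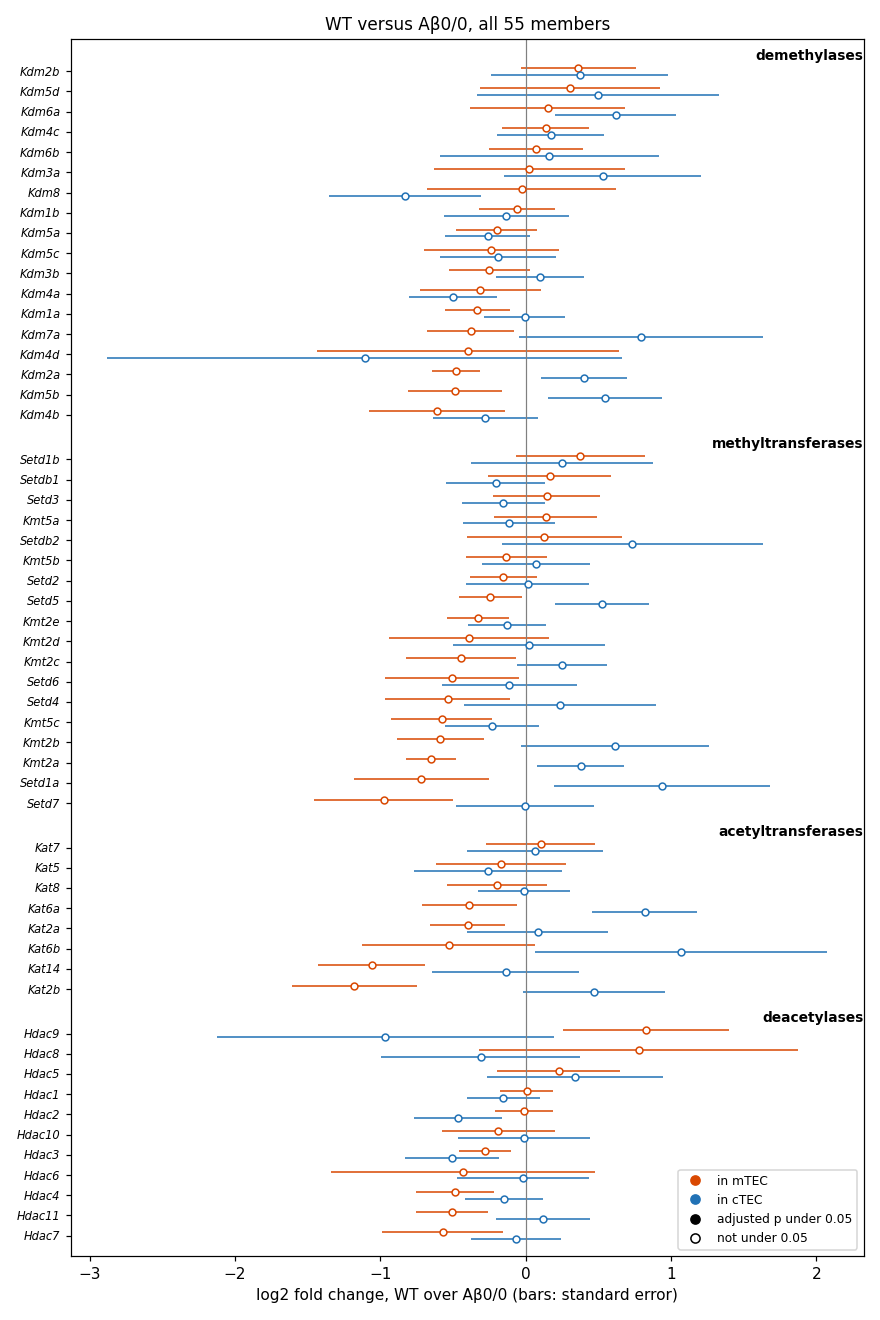
Log2 fold change of WT over Aβ0/0 (x axis) for each of the 55 genes in mTEC (orange) and in cTEC (blue), by class of enzyme, with bars of 1 standard error. All points are open, since none had an adjusted p under 0.05, and 39 of the 55 mTEC points lie left of 0.

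The replicate spread differed between the groups. The SD of the log2 CPM of a member had a median of 0.22 over the 55 genes in WT mTEC, 0.41 in WT cTEC, 0.42 in Aβ0/0 cTEC and 0.58 in Aβ0/0 mTEC, and over all genes tested the medians were 0.27, 0.47, 0.44 and 0.58. The median SE of a log2 fold change was 0.31 for mTEC against cTEC in WT and 0.46 in Aβ0/0, so a difference that passed in WT could miss the threshold in Aβ0/0 at the same size. Single libraries stood apart for some members. WT cTEC replicate 3 differed by more than 1 on the log2 scale from the mean of the other libraries of its group for 15 members, among them Setd1a (40.7 CPM against 10.2 and 6.16). The same count was 15 for Aβ0/0 mTEC replicate 1, 11 to 13 for each of the other 5 Aβ0/0 libraries, 4 and 8 for WT cTEC replicates 1 and 2, and 0 or 1 for the WT mTEC libraries. Aβ0/0 mTEC replicate 2 had 2.42 CPM of Hdac6, the cytoplasmic tubulin deacetylase, against 39.9 and 56.4 in the other libraries of its group. Aβ0/0 cTEC replicate 3 had 5.81 CPM of Kdm3a against 65.9 and 42.2, and 0.634 CPM of Kat6b against 23.6 and 4.33.

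The replicate number was also compared across groups. Kmt2d, an enhancer methyltransferase of lysine 4 of histone H3, had 124, 138, 102 and 163 CPM in the libraries numbered 1 of the 4 groups and between 37.7 and 59.8 CPM in the other 8 libraries. Kat2a, Kdm4b, Kdm5b and Kmt5a were likewise highest in replicate 1 of every group. These 5 were 9.09% of the 55 genes, compared with 5.34% of all genes. Hdac1, Kmt2e and Setd4 were lowest in replicate 1 of every group, 5.45% of the 55 genes compared with 5.2% of all genes. For each of the numbers 2 and 3, 0 or 1 member was highest and 1 was lowest in every group. The counts are small and the shares near those of all genes, so nothing particular to the enzymes is read from them. The sorting record of the study lists the cTEC and mTEC yields of WT and of Aβ0/0 mice under the same replicate numbers. That the numbers of the libraries are those of this record, so that cTEC and mTEC of a genotype share a pool, was assumed. The labels give no date or batch, and whether the genotypes of a number were sorted together is not stated.

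The sex-linked members were considered by library because the sex of the pooled mice is not given. Kdm5d, the Y-linked member of the Kdm5 family, had 12.4, 2.47 and 22.9 CPM in WT cTEC and 18.8, 10.3 and 21.1 CPM in WT mTEC. It had 14.2, 8.75 and 4.19 CPM in Aβ0/0 cTEC and 23.8, 5.95 and 9.76 CPM in Aβ0/0 mTEC. The lowest value was that of WT cTEC replicate 2. The Y-linked genes Ddx3y and Eif2s3y had 0.122 and 0 CPM in this library and 0.151 and 0.242 CPM in WT mTEC replicate 2, compared with 11.5 to 43.3 and 16.1 to 28.3 CPM in the other WT libraries. Kdm5d had 10.3 CPM in WT mTEC replicate 2 nevertheless. In Aβ0/0 mTEC replicate 2 Ddx3y was low as well, at 0.321 CPM, whereas Eif2s3y had 11.3 CPM, and in the other Aβ0/0 libraries Ddx3y had 4.22 to 26.4 CPM. Of the 31-base words of Kdm5d transcripts, 0.0329% are found in Kdm5c transcripts and 5.36% in any other gene.

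**Figure D5:**
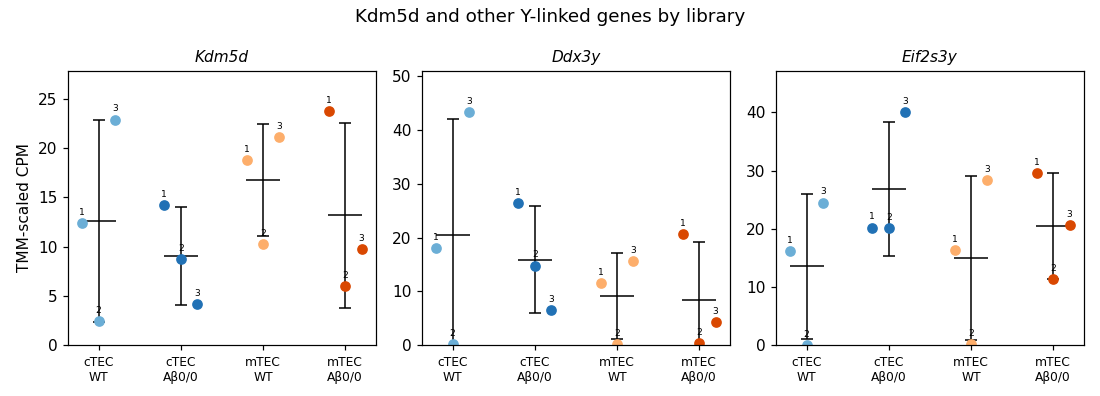
CPM of Kdm5d and of the Y-linked genes Ddx3y and Eif2s3y in each library. The y axes are linear and start at 0, points are libraries with their replicate numbers, and black lines are the mean ± SD of 3 libraries. Replicate 2 of WT cTEC and of WT mTEC is at or near 0 for Ddx3y and Eif2s3y, with Kdm5d at 2.47 CPM in the former, the lowest of the 12 libraries, and at 10.3 CPM in the latter, and replicate 2 of Aβ0/0 mTEC is near 0 for Ddx3y alone.

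Neither Kdm5c nor Kdm6a, the X-linked counterparts that escape X inactivation, passed the test in any comparison. Kdm5c ranged from 30.8 to 115 CPM and Kdm6a from 13.8 to 62.0 CPM over the 12 libraries. In the WT libraries numbered 2, Kdm5c had 65.8 CPM in cTEC and 47.3 CPM in mTEC, and Kdm6a had 53.4 and 40.8 CPM. Among the WT cTEC libraries replicate 2 was the highest for both genes, whereas among the WT mTEC libraries it was the lowest for Kdm5c.

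Related genes outside the 55 were examined in 8 lists with 131 genes in all, of which some stand in more than one list. Between WT mTEC and WT cTEC 19 of the 131 passed the test by edgeR, 5 higher and 14 lower in mTEC, which is to be read against the 26.8% of all genes. The NAD-dependent deacetylase Sirt1 had 24.7, 39.0 and 29.1 CPM in WT cTEC and 159, 136 and 116 CPM in WT mTEC, a rise of 2.15 ± 0.25 on the log2 scale (adjusted p = 0.0012 by edgeR). In Aβ0/0 it had 31.2, 36.3 and 23.8 CPM in cTEC and 37.6, 40.0 and 26.4 CPM in mTEC. It was the single gene of the 131 called between WT and Aβ0/0 mTEC, against 5.66% of all genes, at 1.96 ± 0.24 (adjusted p = 0.035 by edgeR). That call was lost in 5 of 6 fits with 1 library left out, all but the one without Aβ0/0 replicate 1, with adjusted p from 0.052 to 0.14, and with the replicate number as a block, at 0.10, while the log2 fold change stayed between 1.79 and 2.09. Its interaction, at 1.96 ± 0.39, had an adjusted p of 0.27 by edgeR and 7.1e-05 by DESeq2. The other 6 sirtuins did not pass, Sirt2 having a log2 fold change of -0.50 ± 0.20 (adjusted p = 0.11).

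The acetyltransferases of other families were called lower in WT mTEC in 5 of 10 cases, and none was called higher, against 8.81% of all genes lower and 18.0% higher. Ncoa1, a coactivator of nuclear receptors, had 107, 98.0 and 99.7 CPM in WT cTEC and 44.7, 26.3 and 26.0 CPM in WT mTEC (log2 fold change -1.65 ± 0.27, adjusted p = 0.0042 by edgeR). Ep300, which acetylates histones at enhancers, had 68.4, 71.6 and 72.6 CPM against 36.6, 31.6 and 35.1 CPM (log2 fold change -1.04 ± 0.20, adjusted p = 0.0068). Clock and Taf1 fell by 1.17 and 1.21 on the log2 scale, and Gtf3c4 fell by 0.90. None of the 8 Kat genes passed in the same comparison. Many thymocyte, fibroblast and endothelial markers were lower in WT mTEC too, as given above, and their part in the calls of the related genes was not tested.

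The subunits of deacetylase corepressors passed in 4 of 26 cases, all lower in mTEC, against 26.8% of all genes called and 8.81% called lower. The 4 were Mbd2 (log2 fold change -1.40 ± 0.20, adjusted p = 0.0027 by edgeR), Tbl1xr1 (-0.84), Sap18 (-0.77) and Tbl1x (-0.81). Mbd2, the methyl-CpG binding subunit of NuRD, had 178, 210 and 159 CPM in WT cTEC and 68.5, 65.5 and 73.0 CPM in WT mTEC. It was also called in Aβ0/0, the single one of the 130 tested there against 5.60% of all genes, with 198, 226 and 237 CPM in cTEC and 102, 102 and 97.2 CPM in mTEC (log2 fold change -1.14 ± 0.22, adjusted p = 0.026). Of 39 subunits of acetyltransferase complexes 5 passed between WT mTEC and WT cTEC, against 26.8% of all genes, Ing1 higher (0.98 ± 0.20) and Jade2, Zzz3, Yeats2 and Tada2a lower. Of 10 genes of the PRC2 complex, which methylates lysine 27 of histone H3, 3 passed, a share near the 26.8% of all genes. Epop (3.09 ± 0.80) and Jarid2 (0.88 ± 0.25) were higher in WT mTEC and Phf1 (-1.10 ± 0.30) lower.

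The methyltransferases outside the 55 had 1 call of 21 between WT mTEC and WT cTEC, against 26.8% of all genes. It was the muscle gene Smyd1 (adjusted p = 0.043 by edgeR), which had 0.165, 0 and 0.160 CPM in WT cTEC and 6.06, 0.483 and 2.23 CPM in WT mTEC, so that its fold change rests on few counts. Ezh1, Ash1l and Smyd4 followed with adjusted p from 0.069 to 0.14. The demethylases outside the 55 had 1 of 9, again against 26.8% of all genes, namely Jarid2, which lacks demethylase activity. The subunits of the COMPASS complexes, which work with the Kmt2 and Setd1 enzymes, had 0 calls of 12 by edgeR, 0 by DESeq2 and 1 at an unadjusted p under 0.05, that of Ncoa6. The shares of all genes were 26.8%, 32.8% and 37.2%. Between WT and Aβ0/0 cTEC 0 of the 130 related genes tested passed by edgeR, against 0.0194% of all genes, and 1 had an unadjusted p under 0.05, against 2.16%.

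Reads of some members can be shared with other genes. Over 5% of the 31-base words of a member were found in another gene for 14 of the 55. The highest shares were 51.8% for Setd1a, which overlaps Gm49388, 40.0% for Hdac1, most of them in Gm10093, and 21.9% for Setd3, most of them in Gm14026. Of the called members, Kdm1b had 8.56%, all with Dek, Hdac4 had 1.21%, Hdac9 0.332%, Setd7 0.223%, Hdac7 0.105% and Kdm3a 0%.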

How the data were processed

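RNA of 12 sorted cell pools was sequenced. The authors quantified the reads with kallisto and deposited for each library the estimated count and the TPM of every transcript. The authors also deposited 1 table of log2 values, regularized with DESeq2 (rlog). The submitters' processing notes name bcl2fastq 2.20.0, Trim Galore, kallisto 0.43 and build mm10. The annotation release behind the transcripts is not given in the sources used here.

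Of 109282 transcripts, 107987 matched GENCODE M21 and were summed to 34547 genes. The unmatched ones held 0.450% to 0.512% of the counts. Depth was 21710319 to 36139815 estimated counts per library, which were rounded to whole numbers and tested with edgeR 4.0.16 (quasi-likelihood test, trimmed mean of M-values scaling, filterByExpr, R 4.3.3) on the 6 libraries of a comparison, or on all 12 for the interaction, with Benjamini-Hochberg adjustment over all genes tested and a threshold of 0.05. The script was tested on simulated data. Other settings used DESeq2 1.42.0 and, on the rlog values, limma 3.58.1. Groups were taken from the labels.

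Libraries of cTEC and mTEC with the same number and genotype were taken to come from 1 pool, since the sorting record of the study lists both yields under 1 replicate number. Their deviations from the group means correlated at 0.274, 0.0269 and 0.152 in WT and at 0.266, 0.111 and 0.0591 in Aβ0/0. For each comparison the text names the members past the threshold and, where fewer than 10 passed, the 10 with the smallest p. The members and gene lists were chosen with earlier results of these data known. Promoter sequences are those of RefSeq, build GRCm38.p6.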

Additional observations from a re-analysis of the deposited data

How the results depend on the processing

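The count of members called between WT mTEC and WT cTEC was 6 (26.8% of all genes), and 4 to 7 under the settings that kept all libraries of the comparison (11.8% to 32.8% of all genes). It ranged from 2 to 10 when 1 library was left out: 10 without WT cTEC replicate 3, 2 without WT mTEC replicate 1, and 3 without WT mTEC replicate 2 or 3. Over all genes 3395 to 7572 were called in these fits, with 7572 without WT cTEC replicate 3. In Aβ0/0 the count was 0, and 5 with DESeq2 (17.5% of all genes), 1 with the replicate block (4.02%) and 2 when all 12 libraries were fitted together (9.35%); it was 0 to 0 with a library left out. Between WT and Aβ0/0 mTEC it was 0, with 2 by DESeq2 (11.4% of all genes) and 0 to 1 with a library left out, the 1 being Kat2b without Aβ0/0 replicate 1. For WT against Aβ0/0 in cTEC and for the interaction it was 0 under every setting run. The cause of these shifts was not tested.

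Setd1a between WT and Aβ0/0 cTEC was 0.94, and -0.29 to 1.30 with a library left out, the lowest being without WT cTEC replicate 3. Of the 750 values of named genes, 712 kept direction and side of the threshold, 18 passed it and 19 missed it only under the alternative. The number of all genes called between WT and Aβ0/0 mTEC was 1054, but 27 without the filter, 11 with a mean of at least 10 counts, 20 with all 12 libraries and 0 to 2377 with a library left out. The sorting record lists WT and Aβ0/0 under the same replicate numbers but does not say whether they were sorted together: their same-number correlations were 0.25, -0.0596 and 0.0581 in cTEC and 0.303, 0.14 and 0.0573 in mTEC, and with the replicate block 0 members and 0 genes were called in either. The spread between 3 pools limits what can be detected, and a median SE of 0.31 to 0.60 leaves small changes of a member undetectable.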
